A study of Mus musculus with 24 samples.

Results

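Reference genes are the genes against which an RT-qPCR measurement is normalised, on the premise that their own level is the same in every sample. The 8 genes described here are B2m, to which the study normalised its RT-qPCR, and the commonly used reference genes Actb, Gapdh, Hprt1, Tbp, Gusb, Ywhaz and Sdha. They were chosen by name, from a list of 9 names in which Hprt1 and Hprt are the same gene, and they are 8 of the 56748 genes in the count table. All 8 passed the filter on low counts and were tested in every comparison, with between 414 and 78261 counts in a library.

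The study sequenced RNA of mouse dental mesenchyme, the neural crest derived tissue that gives rise to the dental pulp and to the cells that lay down dentin, to compare its lingual (tongue) side with its buccal (cheek) side. First molar germs were taken from the mandibles of embryos of ICR mice, an outbred strain without any allele or treatment named. The cap stage was taken at embryonic day 13 and the bell stage at embryonic day 15, germs were split into a lingual and a buccal part with a fine needle, and the mesenchyme was freed from the epithelium with dispase II. There are 24 libraries in 8 groups of 3, named here as the labels name them. Cap_W and Bell_W are the whole, undivided mesenchyme of the cap and bell stage. Cap_L and Cap_B are the lingual and buccal part at the cap stage, and Bell_L and Bell_B the same parts at the bell stage. Cap_L_2D and Cap_B_2D are the lingual and buccal parts of cap-stage germs after 2 days in culture. Per the study's methods 36 embryos from 3 pregnant mice were used, without a statement of whether germs were pooled. The methods speak of triplicates and, elsewhere, of 2 biological replicates, and do not say whether the 3 libraries of a group came from separate germs or pools. The p-values below therefore measure the spread between these libraries, which may be technical.

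Libraries held 20581720 to 39266497 counted read pairs. The dental mesenchyme markers, led by Prrx1, Msx1 and Pax9, were found in every library, and markers of other cell types were found as well. The 8 skeletal muscle markers summed to 16.5 to 17.8 CPM, which are counts scaled to a common library size, in Cap_L and to 3044 to 3196 CPM in Cap_B_2D, and the 7 epithelial markers ranged from 78.4 CPM in a Cap_B_2D library to 1763 CPM in a Bell_W library. In the whole mesenchyme 2 libraries stood apart from their replicates. The chi-square per degree of freedom between counts of Cap_W replicate 1 and its replicates was 161 and 124, against 7.89 between the other pair, and that of Bell_W replicate 3 was 61.8 and 55.0, against 12.8, where pairs of the 6 other groups reached at most 9.84. In Cap_W replicate 1 Rn18s-rs5, a gene of ribosomal RNA, held 5.39% of counts, against at most 1.43% in any other library, and the 100 most abundant genes took 23.9%, against 13.8% to 17.5%. In Bell_W replicate 3 the epithelial markers summed to 1763 CPM, against 508 and 439.9 CPM in its replicates. The same 3 of the 8 genes were called from Cap_W to Bell_W without either library, and values that moved are given below with and without them.

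Levels below are in CPM after scaling by the trimmed mean of M values (TMM), which sets libraries level on the bulk of genes and leaves each reference gene free to move. They compare 1 gene between libraries, not genes with each other. A difference is the log2 fold change of edgeR's quasi-likelihood test with its standard error (SE). A gene was called where the p-value, adjusted over all genes by Benjamini-Hochberg, was under 0.05 and the absolute log2 fold change was over 0.5. In RNA from whole tissue, fewer cells of a type and less RNA per cell cannot be told apart.

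As background, the 8 genes come from unrelated processes. B2m encodes β-2-microglobulin, the light chain that every classical MHC class I heavy chain needs to reach the cell surface. Its transcription is known to respond to interferons and NF-κB, and it is abundant in leukocytes. Actb encodes cytoplasmic β-actin, Gapdh a glycolytic enzyme, Hprt1 an enzyme of purine salvage, Gusb the lysosomal β-glucuronidase, Tbp the TATA-binding protein of the basal transcription machinery, Ywhaz a 14-3-3 adaptor protein, and Sdha the flavoprotein subunit of succinate dehydrogenase in the citrate cycle and respiratory chain.

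The genes differ widely in abundance. Compared per kilobase of exon, as a length-scaled level averaged over the 24 libraries (FPKM), Actb was the most abundant at 665, followed by B2m at 133, Ywhaz at 84.5, Sdha at 44.7, Hprt1 at 26.4, Gapdh at 13.7, Gusb at 10.8 and Tbp at 2.58. The length used is that of all exons of the gene model, which for Gapdh was 4133 bases, against 1420 in its mRNA. For Hprt1 it was 1289 against 2179 and for B2m 860 against 1086, so the order can change with the length used. Gapdh, usually an abundant transcript, was low on this scale. Its mRNA matched 132 other places in the genome over at least 300 bases at 90% identity or more, which together covered 88.8% of it, at up to 99.8% identity, and read pairs that mapped to several places were not counted. How many pairs of Gapdh this took was not measured. Actb had 1 such copy, covering 97.6% of its mRNA at 91.0% identity, and Ywhaz had 2, covering 60.7% at up to 99.5%. B2m, Hprt1, Tbp, Gusb and Sdha had 0. The gene model of Tbp takes in all 2582 exon bases of Pdcd2 on the other strand, which are 19.0% of its exon bases, and pairs in such shared exons were counted for neither gene. Pdcd2 was listed at 0 in every library. How many pairs were lost in this way from Actb, Ywhaz and Tbp was not measured either. Some pseudogenes were counted as genes of their own. Gapdh-ps15 and Gapdh-ps16 held up to 873 and 881 pairs in a library, beside 1035 to 2206 for Gapdh. Actb-ps1 held up to 4164, beside 23128 to 78261 for Actb. Whether these pairs came from Gapdh or Actb mRNA was not tested.

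B2m (ENSMUSG00000060802, GRCm39 chromosome 2, 121978167 to 121983564, plus strand) had the widest range of the 8 genes. Its level rose from the cap to the bell stage on both sides and in the whole mesenchyme, rose in culture on both sides, and was higher on the lingual side than on the buccal side of cultured mesenchyme. The lowest library, at 32.8 CPM, was of Cap_W, and the highest, at 234 CPM, of Cap_L_2D, a ratio of 7.13.

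The promoter of B2m is shown beside those of H2-K1 and H2-D1, which encode the class I heavy chains that pair with it and whose levels moved with its own, and beside that of Sdha, whose level moved least of the 8 genes. Each is 300 bases from RefSeq on GRCm38.p6, an older build than that of the counts, from 250 bases before the annotated start to 50 after it, and written 5′ to 3′ along the gene. Capitals mark matches on either strand to 4 short motifs: AANNGAAA (a core of interferon regulatory factor sites), GGGNNNNNCCC (κB), CCAAT (the CCAAT box) and TATAA (the TATA box).
B2m, chr2:122147437-122147736, plus strand: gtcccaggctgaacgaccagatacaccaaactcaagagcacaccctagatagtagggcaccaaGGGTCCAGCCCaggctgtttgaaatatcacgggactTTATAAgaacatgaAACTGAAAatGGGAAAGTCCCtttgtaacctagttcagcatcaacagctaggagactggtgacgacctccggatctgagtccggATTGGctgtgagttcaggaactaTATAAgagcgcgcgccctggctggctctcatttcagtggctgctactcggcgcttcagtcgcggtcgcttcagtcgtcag
H2-K1, chr17:34000298-34000597, minus strand: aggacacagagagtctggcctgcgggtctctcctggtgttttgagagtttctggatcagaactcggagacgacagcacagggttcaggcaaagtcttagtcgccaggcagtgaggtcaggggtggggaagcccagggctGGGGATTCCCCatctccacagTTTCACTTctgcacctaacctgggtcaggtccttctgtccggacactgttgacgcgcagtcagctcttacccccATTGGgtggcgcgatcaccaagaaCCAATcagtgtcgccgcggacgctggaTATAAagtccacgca
H2-D1, chr17:35262844-35263143, plus strand: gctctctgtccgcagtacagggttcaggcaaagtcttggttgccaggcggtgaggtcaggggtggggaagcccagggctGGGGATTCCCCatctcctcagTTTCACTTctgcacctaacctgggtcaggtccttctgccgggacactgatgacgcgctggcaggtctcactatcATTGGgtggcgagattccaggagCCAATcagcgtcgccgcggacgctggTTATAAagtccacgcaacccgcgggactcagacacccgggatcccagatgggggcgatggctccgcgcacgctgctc
Sdha, chr13:74350191-74350490, minus strand: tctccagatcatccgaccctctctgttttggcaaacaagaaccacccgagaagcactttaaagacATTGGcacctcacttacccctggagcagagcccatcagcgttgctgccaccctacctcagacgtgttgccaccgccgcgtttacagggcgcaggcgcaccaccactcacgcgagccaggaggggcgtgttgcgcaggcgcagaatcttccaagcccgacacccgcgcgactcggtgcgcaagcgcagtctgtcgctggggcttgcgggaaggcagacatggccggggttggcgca

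The 3 promoters of the class I genes each held all 4 motifs. Relative to the start, in B2m the interferon core began at -137, κB at -187 and -127, CCAAT at -53 on the reverse strand and TATAA at -30, besides a pair of overlapping TATAA matches at -151 and -150. In H2-K1 the interferon core began at -90 on the reverse strand and κB at -111. In H2-D1 the interferon core began at -150, also on the reverse strand, and κB at -171. CCAAT began at -16 on the reverse strand and at 9 in H2-K1. In H2-D1 it began at -76 on the reverse strand and at -53. TATAA began at -26 in H2-D1, beside an overlapping reverse match at -27. The only TATAA of H2-K1 was at 36, after the annotated start. H2-K1 and H2-D1 held κB, the interferon core, CCAAT and forward TATAA in the same order, at other distances from their annotated starts. The order in B2m differed, with TATAA at -151 before the interferon core at -137. The Sdha promoter held CCAAT alone, at -185 on the reverse strand. Such short motifs are common: of 27025 promoters of this length, 24.16% held AANNGAAA, 13.81% held GGGNNNNNCCC, 37.92% held CCAAT and 25.52% held TATAA. The 4 motifs were chosen after these sequences had been seen. A first search with GAAANNGAAA, found in 3.489% of promoters, and TATANAA, found in 11.84%, had matched B2m once each and had matched none of H2-K1, H2-D1 and Sdha. A match is a description of letters, not evidence of a bound site, and the absence of a match says only that these letters are not in this window. Of the 8 reference genes, 6 had a promoter in the table used, all but Actb and Ywhaz, and among Gapdh, Hprt1, Tbp and Gusb the only matches were a pair of overlapping κB matches in Gusb, at -69 and -68.

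At the cap stage B2m was at 45.6, 37.7 and 32.8 CPM in the 3 Cap_W libraries, at 67.2, 70.4 and 65.9 CPM in Cap_L and at 60.03, 61.6 and 62.0 CPM in Cap_B. At the bell stage it was at 106.8, 111 and 128 CPM in Bell_W, at 133, 136 and 135 CPM in Bell_L and at 115, 119.7 and 115 CPM in Bell_B. Every bell-stage library was thus above every uncultured cap-stage library. After culture it was at 234, 234 and 211 CPM in Cap_L_2D and at 154, 150.5 and 149.6 CPM in Cap_B_2D, above all uncultured libraries. Ordered by group mean (± SD, n = 3), the levels ran from Cap_W at 38.7 ± 6.45 CPM through Cap_B at 61.2 ± 1.04, Cap_L at 67.8 ± 2.31, Bell_W at 115 ± 11.2, Bell_B at 117 ± 2.62, Bell_L at 135 ± 1.29 and Cap_B_2D at 152 ± 2.57 to Cap_L_2D at 226 ± 13.4. Of the 7 neighbouring pairs in this order, the values of Bell_W and Bell_B overlapped and those of the others did not. Cap_W, the undivided mesenchyme, thus lay below both of its parts, and the cause was not tested.

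**Figure D1:**
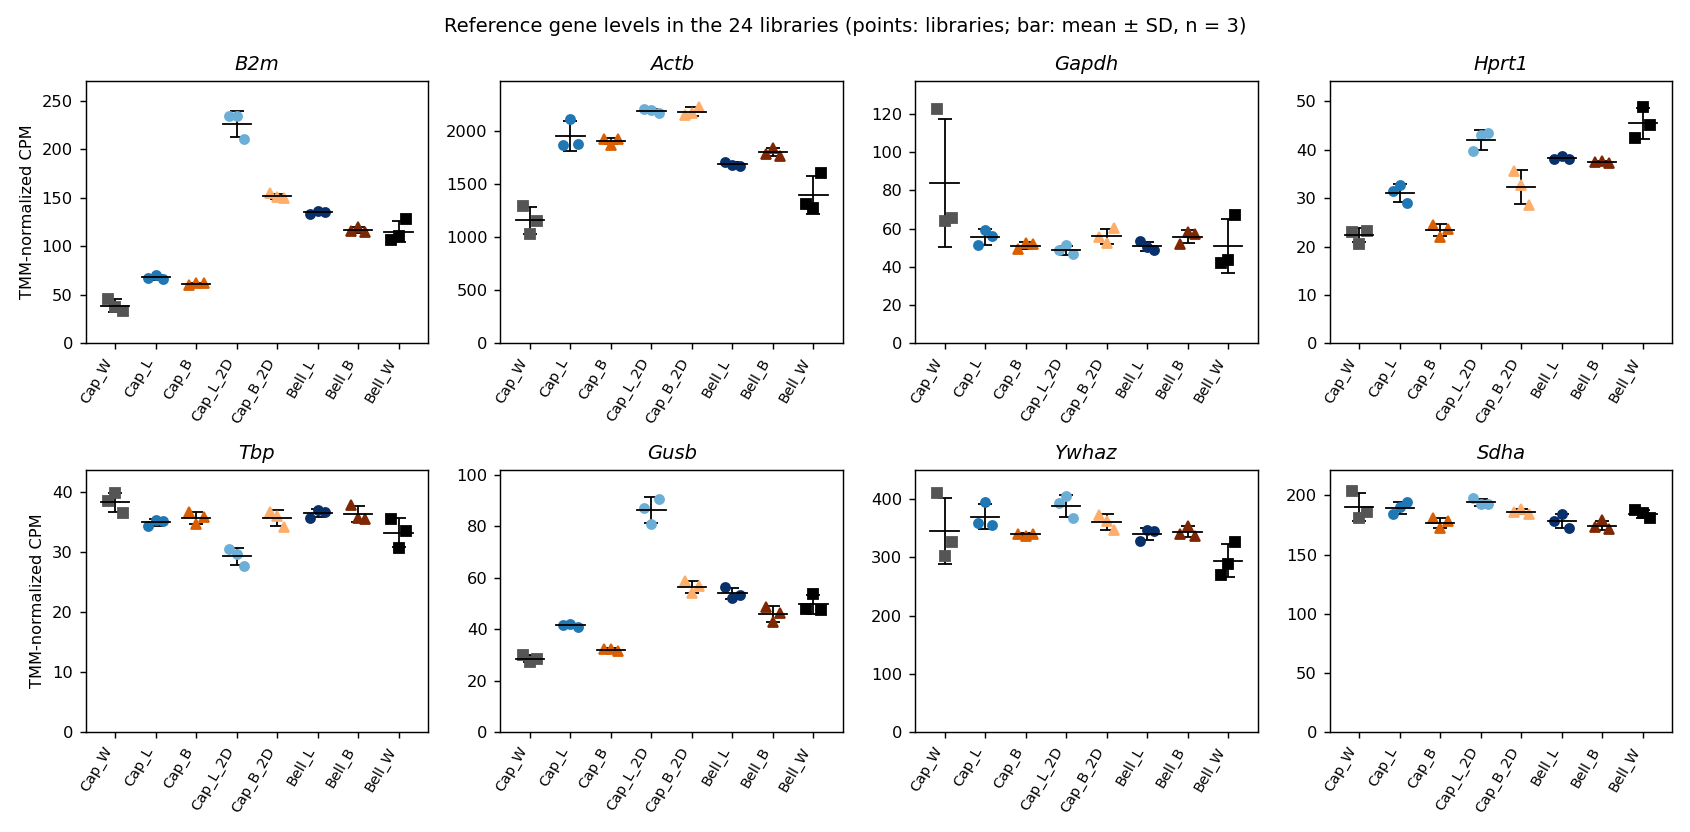
Level of each of the 8 reference genes in the 24 libraries, in TMM-normalized CPM on axes that start at 0. Points are libraries, and bars give the group mean ± SD (n = 3). B2m climbed from 32.8 CPM in a Cap_W library to 234 CPM in a Cap_L_2D library, whereas the 24 values of Sdha lay between 171 and 204 CPM.

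The stage difference was tested 3 times, from the cap to the bell stage. B2m rose by 1.56 on the log2 scale from Cap_W to Bell_W (SE 0.14, adjusted p = 0.000689), by 1.00 from Cap_L to Bell_L (SE 0.0478, adjusted p = 4.98e-15) and by 0.92 from Cap_B to Bell_B (SE 0.0366, adjusted p = 2.46e-20), or 2.96-fold, 2.00-fold and 1.89-fold. Among the 8 genes, B2m, Hprt1 and Gusb were called in the whole mesenchyme, where 14.5% of all genes tested were called, B2m alone on the lingual side, where 20.0% were, and B2m, Hprt1 and Gusb on the buccal side, where 18.7% were. All of these were higher at the bell stage.

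Between sides the changes of B2m were smaller before culture than after it. The buccal level was 0.12 lower than the lingual one at the cap stage (log2, SE 0.0457, adjusted p = 0.0367) and 0.21 lower at the bell stage (SE 0.0326, adjusted p = 1.14e-06), both within the fold limit. In these comparisons 0 of the 8 genes were called by edgeR and 0 by DESeq2, where edgeR called 17.5% and 12.9% of all genes, although 4 and 4 of the 8 had an unadjusted p under 0.05 and 3 and 4 an adjusted one. After culture the buccal level of B2m was 0.58 lower (SE 0.0417, adjusted p = 6.95e-12), and B2m and Gusb were called lower on the buccal side, against 25.1% of all genes called in either direction.

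In culture B2m rose by 1.74 on the log2 scale on the lingual side (SE 0.0476, adjusted p = 2.03e-20) and by 1.29 on the buccal side (SE 0.036, adjusted p = 4.19e-25), or 3.35-fold and 2.44-fold. B2m and Gusb were called on both sides, where 35.4% and 34.5% of all genes were called. Cap_L and Cap_B enter the stage, side and culture comparisons alike, so these comparisons are not independent of each other. The difference between sides changed with culture by -0.46 on the log2 scale for B2m (SE 0.0648, adjusted p = 1.0e-06, test of the interaction). Among the 8 genes, 4 passed that test of side by culture, namely B2m, Gapdh, Tbp and Gusb, where 35.5% of all genes passed it, and 2 passed that of side by stage, namely Gapdh and Hprt1, where 32.5% did. Neither test had a fold limit.

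Gusb (ENSMUSG00000025534, chromosome 5, 130017852 to 130031890, minus strand) followed B2m at a smaller scale. It was at 29.8, 27.2 and 28.3 CPM in Cap_W, 41.7, 42.1 and 41.1 CPM in Cap_L and 32.4, 32.2 and 31.4 CPM in Cap_B. At the bell stage it was at 47.7, 53.9 and 47.5 CPM in Bell_W, 56.4, 52.1 and 53.5 CPM in Bell_L and 48.6, 42.8 and 46.3 CPM in Bell_B. It reached 87.3, 81.1 and 90.8 CPM in Cap_L_2D and 58.7, 53.9 and 57.0 CPM in Cap_B_2D. The cap-stage groups lay apart from each other and below the rest, the bell-stage groups and Cap_B_2D overlapped as neighbours, and Cap_L_2D stood above all others. Gusb rose by 0.79 from Cap_W to Bell_W (log2, SE 0.101, adjusted p = 0.0023), by 0.51 from Cap_B to Bell_B (SE 0.0503, adjusted p = 2.52e-10), by 1.06 in culture on the lingual side (SE 0.0496, adjusted p = 1.07e-15) and by 0.80 on the buccal side (SE 0.0489, adjusted p = 7.63e-16). The call from Cap_B to Bell_B was close to the fold limit and was lost without Cap_B replicate 3, at 0.50, and without Bell_B replicate 1, at 0.47. In cultured mesenchyme the buccal level was 0.62 lower (SE 0.0466, adjusted p = 2.03e-11). The remaining comparisons stayed within the fold limit, at 0.38 from Cap_L to Bell_L, -0.35 between the cap-stage sides and -0.23 between the bell-stage sides, each with an adjusted p under 0.05.

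Hprt1 (ENSMUSG00000025630, chromosome X, 52077014 to 52110536, plus strand) rose from the cap to the bell stage. It was at 23.1, 20.6 and 23.2 CPM in Cap_W and 42.4, 48.8 and 45.1 CPM in Bell_W. The sides at the cap stage were at 31.5, 32.7 and 28.9 CPM in Cap_L and 24.5, 22.1 and 23.5 CPM in Cap_B, and at the bell stage they were at 38.1, 38.6 and 38.0 CPM in Bell_L and 37.5, 37.7 and 37.2 CPM in Bell_B. After culture the levels were 39.7, 43.0 and 43.4 CPM in Cap_L_2D and 35.7, 32.8 and 28.5 CPM in Cap_B_2D. Each bell-stage group lay above its cap-stage counterpart with no overlap. Hprt1 rose by 1.01 from Cap_W to Bell_W (log2, SE 0.108, adjusted p = 0.00119) and by 0.67 from Cap_B to Bell_B (SE 0.0619, adjusted p = 5.67e-11), and by 0.31 from Cap_L to Bell_L (SE 0.0557, adjusted p = 5.6e-05), within the fold limit. In culture it differed by 0.44 on the lingual side and by 0.45 on the buccal side, both within the limit with adjusted p of 1.18e-07 and 1.2e-07. Without Cap_B_2D replicate 3 the buccal value was 0.54 and was called. The lower buccal level at the cap stage (-0.39, SE 0.062, adjusted p = 5.4e-05) was not seen at the bell stage (-0.03), and the difference between these values, 0.35, passed the test of side by stage (SE 0.0746, adjusted p = 0.000418).

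Actb (ENSMUSG00000029580, chromosome 5, 142888870 to 142892509, minus strand) separated the whole from the divided mesenchyme more than it separated stages. It was at 1288, 1028 and 1152 CPM in Cap_W and 1307, 1273 and 1602 CPM in Bell_W. The divided groups were at 1864, 2112 and 1874 CPM in Cap_L, 1922, 1867 and 1920.1 CPM in Cap_B, 1706, 1677 and 1672 CPM in Bell_L and 1786, 1843 and 1767 CPM in Bell_B. After culture it was at 2202, 2198 and 2164 CPM in Cap_L_2D and 2146, 2172 and 2226 CPM in Cap_B_2D. All 6 libraries of Cap_W and Bell_W lay below all 18 others. No difference of Actb in the 8 comparisons of pairs of groups passed the fold limit, the largest being 0.26 from Cap_W to Bell_W (log2), which was 0.14 without Bell_W replicate 3, and 5 of the 8 had an adjusted p under 0.05, among them 0.17 on the lingual side in culture (SE 0.0464, adjusted p = 0.00211) and 0.18 on the buccal side (SE 0.03, adjusted p = 4.2e-06). No pair of groups tested here set the whole mesenchyme against its divided parts.

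Gapdh (ENSMUSG00000057666, chromosome 6, 125138678 to 125143430, minus strand) was even in the divided mesenchyme and uneven in the whole. In the 18 libraries of the divided groups it lay between 46.5 and 60.4 CPM. In Cap_W it was at 123, 64.1 and 65.5 CPM and in Bell_W at 42.0, 43.3 and 67.4 CPM. The value of 123 CPM belongs to Cap_W replicate 1, and Bell_W replicate 3 exceeded those of Cap_W replicates 2 and 3. From Cap_W to Bell_W the log2 difference was -0.73 (SE 0.29, adjusted p = 0.136), without Cap_W replicate 1 it was -0.38 (adjusted p = 0.292), and without Bell_W replicate 3 it was -0.98 (adjusted p = 0.0698). In all other comparisons it was at most 0.20 in size, and 4 of the 8 had an adjusted p under 0.05, among them 0.20 between the cultured sides (SE 0.0521, adjusted p = 0.00256). Gapdh passed the test of side by stage at 0.23 (SE 0.0748, adjusted p = 0.0173) and that of side by culture at 0.29 (SE 0.0805, adjusted p = 0.00518). The first was lost without Bell_L replicate 3, at 0.19 (adjusted p = 0.069), without Bell_B replicate 2, at 0.20 (adjusted p = 0.0574), and without Bell_B replicate 3, at 0.21 (adjusted p = 0.0533).

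Tbp (ENSMUSG00000014767, chromosome 17, 15720150 to 15748641, plus strand) was lowest in the cultured lingual mesenchyme. There it was at 30.5, 29.6 and 27.7 CPM, against 34.4, 35.4 and 35.2 CPM in Cap_L and 36.8, 36.1 and 34.2 CPM in Cap_B_2D. The other libraries lay between 30.7 CPM in Bell_W and 39.8 CPM in Cap_W, and the 3 values of Cap_L_2D lay below all of them. Tbp was 0.25 lower after culture on the lingual side (log2, SE 0.0531, adjusted p = 0.000181) and 0.28 higher on the buccal than on the lingual side of cultured mesenchyme (SE 0.0532, adjusted p = 6.92e-05), both within the fold limit, and its other 6 differences had an adjusted p above 0.05. The change of the side difference with culture was 0.22 (SE 0.074, adjusted p = 0.0175), and this was lost without Cap_B replicate 2, at 0.21 (adjusted p = 0.0546), and without Cap_L_2D replicate 3, at 0.18 (adjusted p = 0.0746).

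Ywhaz (ENSMUSG00000022285, chromosome 15, 36771014 to 36797173, minus strand) ranged from 269 CPM in a Bell_W library to 409.9 CPM in Cap_W replicate 1. It was at 409.9, 302 and 326 CPM in Cap_W and 269, 288 and 326 CPM in Bell_W, and the 18 libraries of the divided groups were between 328 and 405 CPM. Of the 7 neighbouring pairs of groups in order of mean, 6 overlapped. Bell_W had the lowest mean and lay apart from Cap_B, its neighbour, but its replicate 3 was above a Cap_W library. The largest difference was -0.24 from Cap_W to Bell_W (log2, 95% interval -0.57 to 0.09), which was -0.12 without Cap_W replicate 1 and -0.32 without Bell_W replicate 3, and 1 of the 8 comparisons, between the cultured sides at -0.11 (SE 0.0402, adjusted p = 0.0191), had an adjusted p under 0.05.

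Sdha (ENSMUSG00000021577, chromosome 13, 74470373 to 74498399, minus strand) was the steadiest of the 8. It was at 204, 181 and 186 CPM in Cap_W, 184, 189.8 and 194 CPM in Cap_L and 180.5, 172 and 178 CPM in Cap_B. At the bell stage it was at 187, 185 and 181 CPM in Bell_W, 178, 184 and 172 CPM in Bell_L and 173, 179 and 171 CPM in Bell_B. After culture it was at 198, 192 and 193 CPM in Cap_L_2D and 186, 189 and 184 CPM in Cap_B_2D. The highest library was 1.19 times the lowest, and each group overlapped its neighbour in the order of means, which ran from 174 ± 4.05 CPM in Bell_B to 194 ± 2.96 CPM in Cap_L_2D (SD, n = 3). Its 8 differences lay between -0.08 and 0.05 on the log2 scale, none had an adjusted p under 0.05, and all 8 of their 95% intervals lay within ±0.5. This does not show that the levels were equal.

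**Figure D2:**
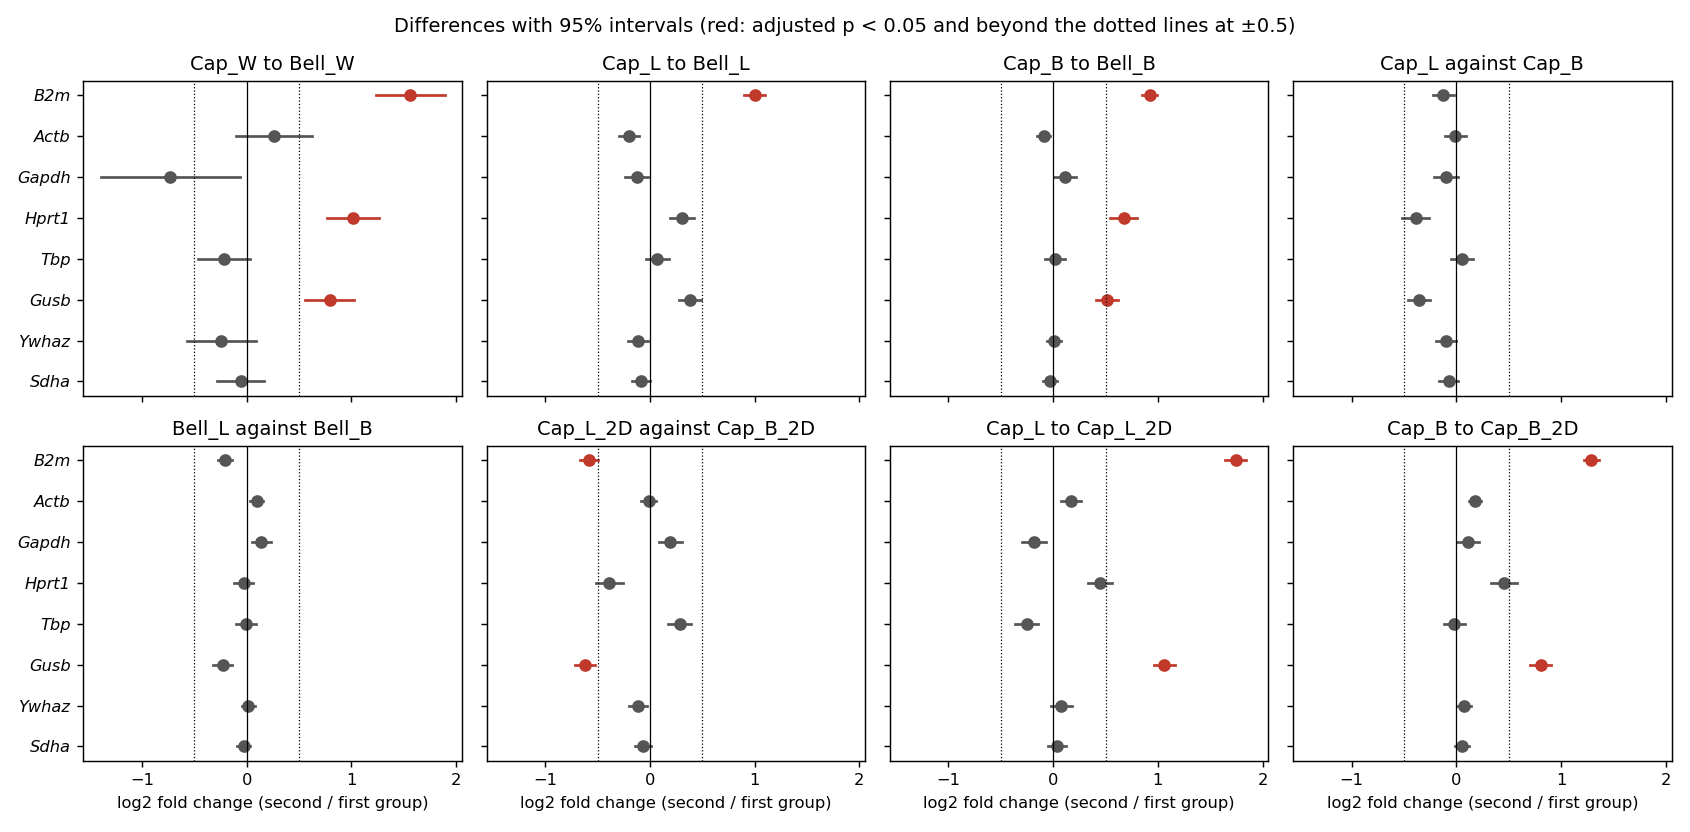
Log2 fold changes of the 8 reference genes in the 8 comparisons of pairs of groups, second group over first, with 95% intervals from edgeR. Red points were called and dotted lines mark ±0.5. The 13 called values belong to B2m, Gusb and Hprt1, and all intervals of Sdha lie between the dotted lines.

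Over the 64 tests of 8 genes in 8 comparisons, 13 were called, 6 of B2m, 5 of Gusb and 2 of Hprt1, and 44 had a 95% interval within ±0.5. A test for any difference among the 8 groups was passed by 7 of the 8 genes, where 83.1% of all genes passed it. Sdha narrowly missed it (adjusted p = 0.0508). It passed by DESeq2 (adjusted p = 0.000303), and in edgeR with DESeq2's size factors (0.0282) and upper quartile normalization (0.0253). It also passed with at least 10 counts in every library (0.048), without the 100 most abundant genes (0.034), and with libraries scaled by B2m or all 8 genes. It missed with library totals alone (0.0543), a replicate block (0.0649) and no filter on low counts (0.301). Its adjusted p was 0.017 to 0.0987 when single libraries were left out. Gapdh passed at 0.00709 and missed without Cap_W replicate 1 (adjusted p = 0.0986), and Ywhaz passed at 0.0117 and missed without Bell_W replicate 1 (adjusted p = 0.0513).

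As a single measure of stability, the SD of log2 CPM over the 24 libraries was 0.792 for B2m, 0.481 for Gusb, 0.368 for Hprt1, 0.318 for Actb, 0.299 for Gapdh, 0.144 for Ywhaz, 0.123 for Tbp and 0.0647 for Sdha. The median over 23402 genes was 0.402, and over the 6987 of them with a mean log2 CPM of at least 5 it was 0.213. Among those abundant genes, 96.6% had a smaller SD than B2m, 89.4% than Gusb, 81.0% than Hprt1, 74.9% than Actb and 72.1% than Gapdh. The shares were 17.6% for Ywhaz, 8.99% for Tbp and 0.0716% for Sdha, or 5 genes, led by Zdhhc3 at 0.0544 and Idh3b, which encodes a subunit of isocitrate dehydrogenase, at 0.0577. For most members the spread lay between groups. The SD within groups was 0.105 for B2m against 0.823 between its 8 group means, and 0.0698 against 0.50 for Gusb, whereas for Gapdh it was 0.242 against 0.231. Without Cap_W replicate 1 the SD of Gapdh over the libraries fell to 0.176, and without the 6 libraries of whole mesenchyme that of Actb fell to 0.146 and that of B2m to 0.674.

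**Figure D3:**
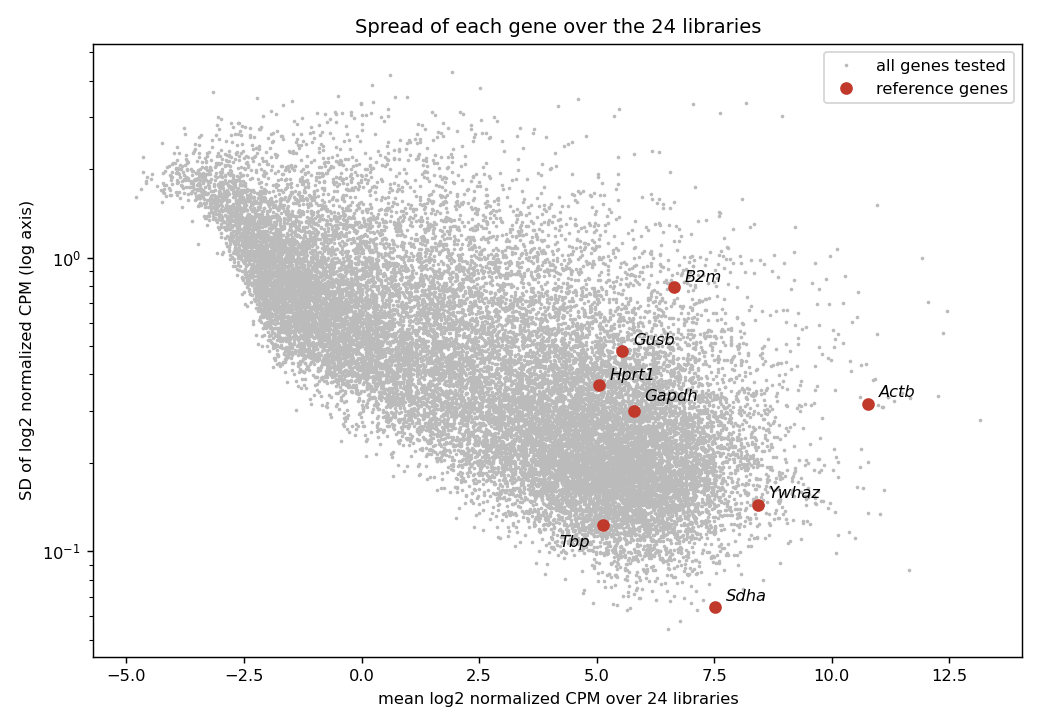
SD of log2 CPM over the 24 libraries (log axis) against mean log2 CPM for all genes tested (grey) and the 8 reference genes (red). B2m, at 0.792, lies above most genes of like abundance, and Sdha, at 0.0647, at the lower edge.

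These values rest on TMM scaling, but ratios between the genes do not, since the scaling cancels within a library. The SD of the log2 ratio of a gene to each of the other 7, averaged over them, was largest for B2m at 0.707, followed by Gapdh at 0.507, Gusb at 0.462, Hprt1 at 0.435, Actb at 0.418, Tbp at 0.417, Sdha at 0.36 and Ywhaz at 0.358. When the gene with the largest value was removed step by step, B2m left first, followed by Gusb, Hprt1, Actb, Gapdh and Tbp, and Ywhaz and Sdha remained, with an SD of 0.128 for their ratio. In an analysis added after seeing the data, the order of removal was the same without Cap_W replicate 1 and without Bell_W replicate 3, and the value of Gapdh before removal was 0.404 without the former. The ratio of B2m to Sdha averaged 0.203 in Cap_W and 1.17 in Cap_L_2D, a 5.75-fold span of group means. In the divided mesenchyme the lowest mean was 0.346, in Cap_B. The whole mesenchyme Cap_W thus lay below both of its parts, Cap_B and Cap_L at 0.358, and the cause was not tested. With the whole mesenchyme included, the span was 7.65-fold against Tbp, 5.19-fold against Ywhaz and 9.53-fold against Gapdh, or 8.52-fold without Cap_W replicate 1. It was 3.21-fold against Actb, 3.10-fold against Hprt1 and 1.98-fold against Gusb.

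What the choice of reference gene does to other genes was described by scaling every library to 1 gene and repeating the 8 comparisons. Holding a gene level takes about its own log2 fold change off every gene. The shifts therefore restate the differences given above, and are not a separate test of stability. With B2m held level the median log2 fold change of all genes shifted against TMM by -1.74 from Cap_L to Cap_L_2D, by -1.57 from Cap_W to Bell_W, by -1.29 from Cap_B to Cap_B_2D, and by 0.58 between the cultured sides. It dropped by 1.00 and 0.92 in the lingual and buccal stage comparisons, so that it moved by over 0.5 in 6 of the 8. Between the uncultured sides it shifted by 0.12 and 0.21. The counts of genes called followed. From Cap_L to Cap_L_2D, 4196 genes were called higher and 3397 lower with TMM, and 563 and 19532 with B2m, which puts 55.3% and 2.80% of calls in the higher class. From Cap_W to Bell_W, 2155 and 882 became 379 and 17785. The largest shift was 1.06 in size with Gusb, 1.01 with Hprt1, 0.68 with Gapdh, 0.28 with Tbp, 0.25 with Actb, 0.23 with Ywhaz and 0.08 with Sdha, for which it was under 0.1 in all 8 comparisons. The shift with Gapdh was that from Cap_W to Bell_W, and it was 0.44 without Cap_W replicate 1 and 0.87 without Bell_W replicate 3, in fits added after seeing the data. With Sdha, 3971 and 3760 genes were called from Cap_L to Cap_L_2D. With the geometric mean of all 8 genes the largest shift was 0.38.

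**Figure D4:**
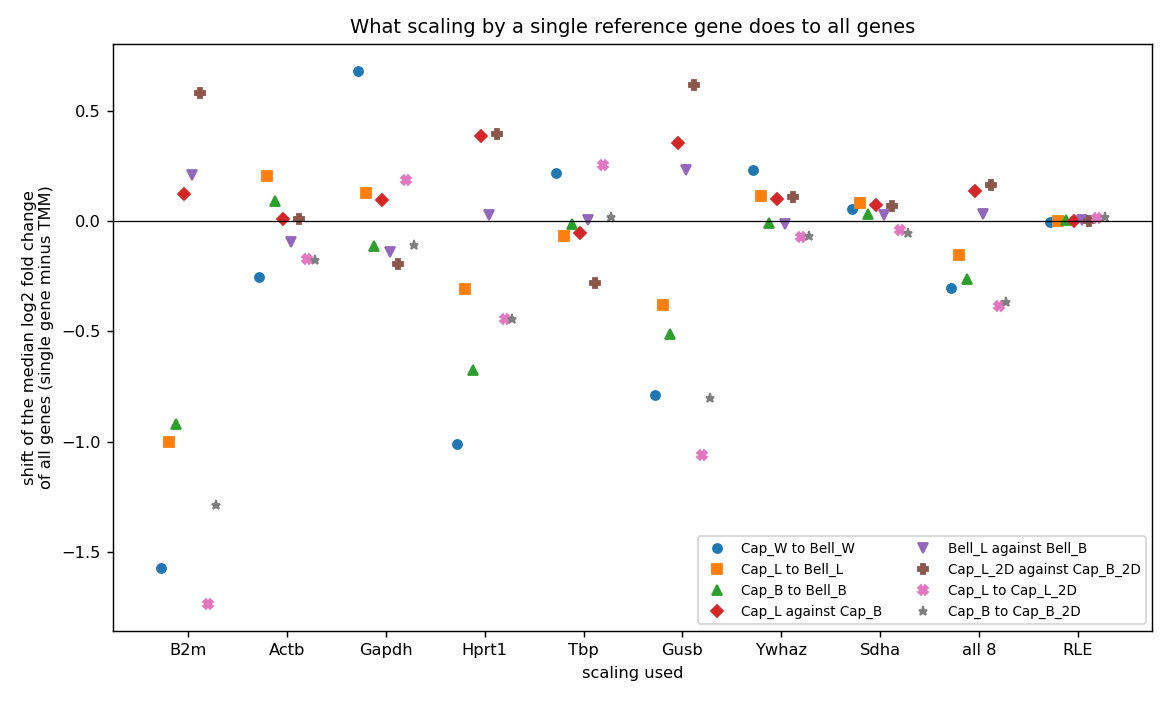
Shift of the median log2 fold change of all genes when libraries are scaled by a single reference gene, by all 8 together or by DESeq2's size factors (RLE), against TMM. Each symbol is 1 of the 8 comparisons. For a single gene, each shift is close to that gene's own log2 fold change under TMM with the sign reversed. B2m gave shifts from -1.74 to 0.58, and Sdha stayed within 0.0818 of 0.

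The partners of each reference gene were taken from lists of its pathway. B2m moved with the genes of class I presentation in most comparisons. The 11 genes listed are H2-K1 and H2-D1 (heavy chains), Tap1 and Tap2 (the peptide transporter), Tapbp (peptide loading), Psmb8 and Psmb9 (the immunoproteasome), Nlrc5 (a transcriptional regulator of class I genes), and Fcgrt, Cd1d1 and Hfe (class I-like chains that pair with B2m). Of these, 10 were called higher from Cap_W to Bell_W, 7 from Cap_L to Bell_L and 3 from Cap_B to Bell_B, with medians of 2.14, 0.73 and 0.46 on the log2 scale beside -0.03, 0.00 and 0.00 over all genes, of which 14.5%, 20.0% and 18.7% were called in either direction. In culture 9 rose on the lingual side and 8 on the buccal side, where 35.4% and 34.5% of all genes were called. After culture 5 were lower on the buccal than on the lingual side, where 25.1% of all genes were called in either direction. Between the cap-stage sides 1 was called higher on the buccal side and 0 lower, whereas B2m was 0.12 lower there (log2). At the bell stage 0 were called higher on the buccal side and 2 lower. In these comparisons 17.5% and 12.9% of all genes were called in either direction. H2-K1 was at 9.35, 12.1 and 11.5 CPM in Cap_W, 26.8, 29.3 and 27.2 CPM in Cap_L and 103, 97.3 and 104 CPM in Cap_L_2D, and H2-D1 at 14.1, 18.3 and 13.7 CPM, 38.1, 42.4 and 38.0 CPM and 133, 122 and 130.5 CPM in the same groups. For both genes these 3 groups lay apart in the same order as for B2m. In Cap_B H2-K1 was at 27.3, 27.05 and 29.2 CPM and H2-D1 at 39.3, 37.9 and 39.6 CPM. Both genes thus overlapped between the cap-stage sides, where B2m did not. From Cap_L to Cap_L_2D H2-K1 rose by 1.87 and H2-D1 by 1.71, beside 1.74 for B2m. Over the 24 libraries the summed CPM of the 11 genes had a Pearson r of 0.974 with that of B2m, given as a description, since the libraries share groups and scaling.

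Markers of macrophages and other leukocytes moved with B2m in most comparisons. Of 12 markers, among them Csf1r, the receptor of a macrophage growth factor, and Mrc1, the mannose receptor, 12 were called higher from Cap_W to Bell_W, 12 from Cap_L to Bell_L and 11 from Cap_B to Bell_B, and 10 and 8 in culture on the lingual and the buccal side. In these comparisons 14.5%, 20.0%, 18.7%, 35.4% and 34.5% of all genes were called in either direction. Between the cap-stage sides 1 marker was called higher on the buccal side and 0 lower, whereas B2m was 0.12 lower there (log2). Of the 12 markers, 9 were lower on the buccal side at the bell stage and 7 after culture, where 12.9% and 25.1% of all genes were called. Their sum was 54.6 to 63.0 CPM in Cap_W, 108 to 112 in Cap_L, 117 to 122 in Cap_B, 270 to 282 in Bell_W, 414 to 419 in Bell_L, 227 to 230.1 in Bell_B, 352 to 364 in Cap_L_2D and 233 to 246 in Cap_B_2D, and none of the 12 was at 0 throughout any group. Its r with B2m over the 24 libraries was 0.818, and the highest marker sum was that of Bell_L while the highest B2m was that of Cap_L_2D. The part of these cells in the level of B2m was not tested. The r with B2m was 0.126 for endothelial, 0.306 for muscle and -0.681 for dental mesenchyme markers.

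**Figure D5:**
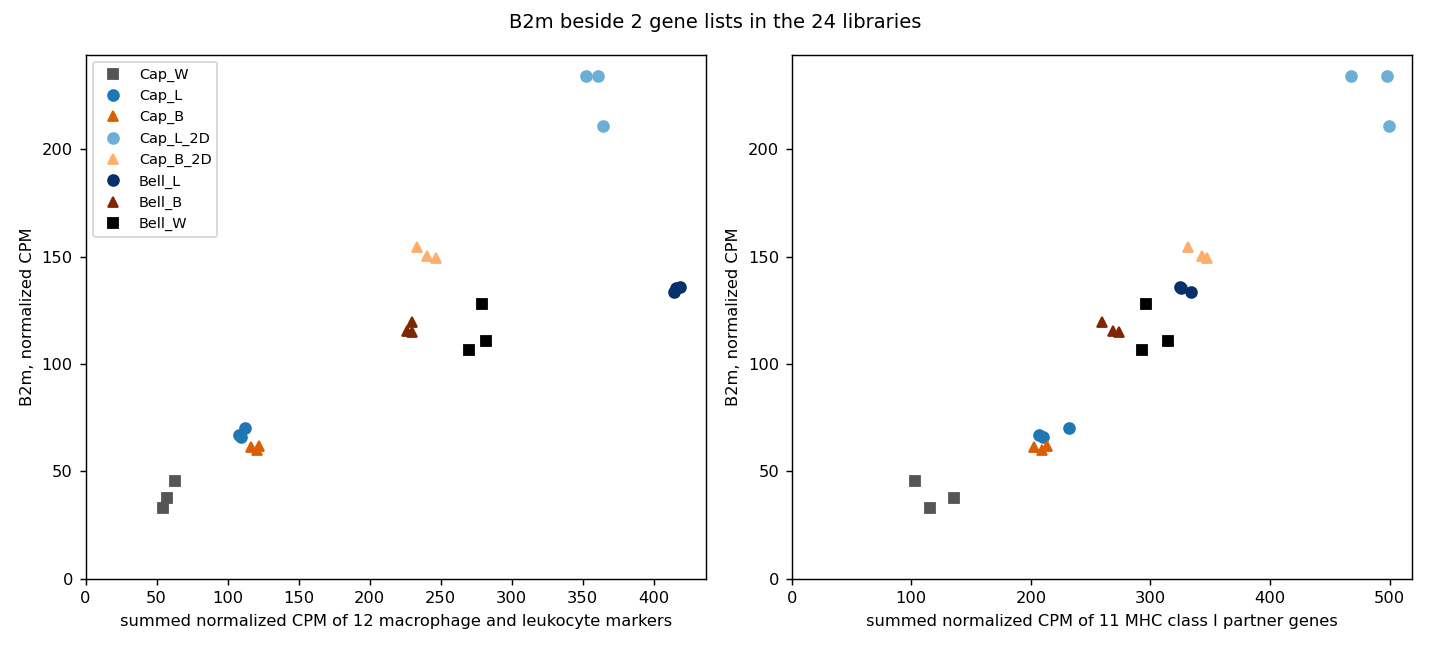
B2m level against the summed level of 12 macrophage and leukocyte markers (left) and of 11 MHC class I partner genes (right), all in TMM-normalized CPM, with 1 point per library. B2m rises with both sums, and the Bell_L libraries lie to the right of the other points in the left panel, with marker sums of 414 to 419 CPM.

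Gusb was set beside 10 other lysosomal genes. Of these, 5, 3 and 1 were called higher with stage in the whole, lingual and buccal mesenchyme, where 14.5%, 20.0% and 18.7% of all genes were called in either direction. In culture 9 and 5 were called higher on the lingual and buccal side, where 35.4% and 34.5% were called, with medians of 1.15 and 0.64 on the log2 scale beside -0.03 and -0.02 over all genes. The most abundant of them, Lamp1 and Lamp2, encode lysosomal membrane proteins, and Lamp1 rose by 1.18 and 1.05 in culture, beside 1.06 and 0.80 for Gusb. The lysosomal sum had an r of 0.925 with Gusb and 0.934 with B2m over the 24 libraries. Gusb also had an r of 0.970 with the sum of the 11 class I genes and of 0.768 with that of the 12 macrophage and leukocyte markers, whose part in its level was not tested. Of 4 other genes of purine salvage and turnover, listed with Hprt1, 1 was called higher in each stage comparison, the phosphorylase Pnp at 1.07, 1.21 and 0.62, and Aprt, the salvage enzyme for adenine, was at 0.17, -0.19 and -0.04.

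The lists around the steadier genes moved less, with exceptions. The 10 genes of succinate dehydrogenase and the citrate cycle listed with Sdha lay between -0.27 and 0.44 on the log2 scale over the 8 comparisons, and Mdh2, the malate dehydrogenase of mitochondria and the most abundant of them, between -0.20 and 0.27. Of the 15 genes listed with Tbp, mostly other subunits of the TFIID complex, Taf6 was called lower from Cap_W to Bell_W, at -0.58, and Taf7 higher from Cap_B to Cap_B_2D, at 0.52. Of 6 other 14-3-3 genes Sfn, an epithelial member, was called in 5 of the 8 comparisons, at -3.60 between the cultured sides, where 6 of 7 epithelial markers were also lower on the buccal side, and Ywhae, the most abundant, lay between -0.40 and 0.06. Of 14 genes of glycolysis, 8 were called on the lingual side in culture, 2 higher and 6 lower, and 6 on the buccal side, 3 each way, where 35.4% and 34.5% of all genes were called, and Gapdh was at -0.19 and 0.11. The actins besides Actb went different ways. Actg1, the other cytoplasmic actin, lay between -0.36 and 0.38, and the smooth muscle actin Acta2 rose by 5.24 and 3.69 in culture. The 8 skeletal muscle markers, which do not include Acta2, were also called higher there. No list of smooth muscle genes was compared.

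Genes outside the 8 put these values in context. Of 28 further genes in use as references, 27 had a smaller SD over the 24 libraries than B2m, the exception being the ribosomal RNA gene Rn18s-rs5 at 1.51, 4 had a smaller one than Ywhaz, 1 than Tbp, the ATP synthase gene Atp5f1b at 0.107, and 0 than Sdha. Their median was 0.235. The genes whose log2 levels were most like those of B2m by Pearson r over the 24 libraries, among tested genes with an average log2 CPM of at least 2, were Sat1 at 0.994, Tmed3 at 0.991, Aplp2 at 0.987, Arpc5 at 0.982 and Pld4 at 0.981. Sat1, an enzyme of polyamine breakdown, ranged from 11.9 to 59.6 CPM, 5.02-fold, beside 7.13-fold for B2m.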

How the data were processed

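RNA-seq was done on 24 libraries of dental mesenchyme in 8 groups of 3, assigned to groups from their labels. The authors deposited 1 table of raw counts, read pairs per gene, without normalization. Per the file headers the table was made with featureCounts 2.0.0 over the exons of each gene of Ensembl release 107 on GRCm39, in paired mode, without regard to strand and without pairs that map to several places. The labels name FastQC 0.12.1, Trimmomatic 0.39, Bowtie 1.2.3 and Subread 2.0.3, and DESeq2 1.40.2 for the authors' own comparisons, whereas the methods of the study name another aligner and trimmer, and the library kit also differs between these sources. Symbols were taken from a GENCODE annotation of GRCm39 by identifier, for 56017 of 56748 genes.

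The counts were tested with edgeR 4.0.16 in R 4.3.3 (quasi-likelihood, TMM factors, filterByExpr, Benjamini-Hochberg adjustment over all genes). The comparison of the whole mesenchyme and those between sides were each fitted on their own groups alone, and the interactions within their 4 groups. The stage and culture comparisons of 1 side shared 1 fit of its cap, bell and cultured groups. Standard errors and p-values of different comparisons therefore do not come from like fits. Standard errors and 95% intervals came from the same fits, which were tested on simulated counts. Levels and the SD over libraries came from 1 fit of all 24 libraries, with a prior count of 0.5 on the log2 scale. Copies of member mRNAs were sought with blastn 2.17.0, and promoter sequences are RefSeq's. The floor of 3 counts came to 0.0764 to 0.146 CPM, far below every member, and intervals cover counting error and the spread between libraries, not PCR duplicates. An exact permutation test of 3 against 3 libraries cannot go below p = 0.10, so none was used. Replicate libraries differed by more than sampling noise in every pair.

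The genes and lists, and the rule for naming genes, were chosen with earlier results of these data known. The rule named the 8 members, from each list the 2 most abundant genes and any called in the comparison described, the 5 genes most like B2m and the 5 steadiest. The alternatives were other normalizations, scaling by reference genes, other filters and thresholds, DESeq2 1.42.0, the replicate number as a block, 1 fit of all libraries, and each library left out in turn.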

Additional observations from a re-analysis of the deposited data

Results flagged for a closer look

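For 5 of the 8 genes the effect of 1 factor differed with another by the edgeR test of the interaction, adjusted over all genes. The difference between sides changed from the cap to the bell stage for Hprt1, by 0.35 on the log2 scale (adjusted p = 0.000418), and for Gapdh, by 0.23 (adjusted p = 0.0173). It changed with culture for B2m, by -0.46 (adjusted p = 1.0e-06), for Gusb, by -0.27 (adjusted p = 0.00349), for Gapdh, by 0.29 (adjusted p = 0.00518), and for Tbp, by 0.22 (adjusted p = 0.0175). A negative value means that the buccal level fell relative to the lingual one.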

How the results depend on the processing

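Of 19 called results of single genes, 184 values under other settings kept their direction and their side of the threshold, 18 missed the threshold and 7 reversed. All reversals, including those of uncalled results, came with libraries scaled by B2m, which sets B2m itself to 0 by construction and moves every other gene by the same amount. Under it the log2 fold change from Cap_W to Bell_W was -1.32 for Actb, -0.56 for Hprt1 and -0.78 for Gusb. From Cap_L to Bell_L it was -0.69 for Hprt1, -0.93 for Tbp and -0.62 for Gusb, and from Cap_B to Bell_B it was -0.81 for Gapdh, -0.25 for Hprt1, -0.90 for Tbp, -0.41 for Gusb and -0.91 for Ywhaz. From Cap_L to Cap_L_2D it was -1.57 for Actb, -1.29 for Hprt1, -0.68 for Gusb, -1.67 for Ywhaz and -1.70 for Sdha, and from Cap_B to Cap_B_2D it was -1.11 for Actb, -1.18 for Gapdh, -0.84 for Hprt1, -0.49 for Gusb, -1.22 for Ywhaz and -1.23 for Sdha. Between the cultured sides it was 0.57 for Actb and 0.52 for Sdha, and for side by culture 0.46 for Actb, 0.45 for Hprt1, 0.19 for Gusb and 0.45 for Ywhaz.

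The number of the 8 genes called moved as follows. Scaled by B2m it was 7 from Cap_W to Bell_W, 7 from Cap_L to Bell_L, 5 from Cap_B to Bell_B, 7 and 6 in culture on the lingual and buccal side, 4 between the cultured sides and 4 for side by stage. Scaled by all 8 genes it was 5 from Cap_W to Bell_W, 1 from Cap_B to Bell_B, 4 and 1 in culture and 0 between the cultured sides. With no limit on the fold it was 4 from Cap_L to Bell_L, 3, 4 and 6 between sides at the cap stage, at the bell stage and after culture, and 6 and 5 in culture. With a log2 limit of 1 it was 0 from Cap_B to Bell_B, 0 between the cultured sides and 1 from Cap_B to Cap_B_2D. With all 24 libraries in 1 fit it was 1 for side by stage and 2 for side by culture, where Gapdh missed at adjusted p of 0.615 and 0.471 and Gusb at 0.0778. The same fit called Gapdh lower from Cap_W to Bell_W, at -0.72 (adjusted p = 0.00281). The cause of these moves was not tested.

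Leaving out single libraries gave 3 to 3 genes called from Cap_W to Bell_W, 1 to 1 from Cap_L to Bell_L, 2 to 3 from Cap_B to Bell_B, 2 to 2 and 2 to 3 in culture, 0 to 0, 0 to 0 and 2 to 2 between sides, 1 to 3 for side by stage, 3 to 4 for side by culture and 7 to 8 for any difference. Of 174 such values of called results, 167 kept their call, 7 lost it and 0 reversed. Fitted with a block for replicate number, the 8 genes gave 3, 1 and 3 calls with stage, 2 and 2 in culture, 0, 0 and 2 between sides, 2 and 4 for the interactions and 7 for any difference, the same counts as without it. Whether same-numbered libraries came from the same germs or pool is not stated. The correlation of their deviations from the group means was -0.04 to 0.08 over 24 pairs, and no comparison had every pair over 0.1. Such a correlation, over all genes and groups of 3, cannot decide whether they were paired. Low depth limits none of the 8 genes, but pairs that map to several places or overlap 2 genes were not counted, and how many this took from Gapdh, Actb, Ywhaz and Tbp was not measured.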
